A study of Mus musculus with 24 samples.

Results

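The 3 mouse RUNX genes, *Runx1*, *Runx2* and *Runx3*, and *Cbfb*, which encodes their shared partner, were taken from the 55487 genes of both value files by their symbols, and each of the 4 was found once. RUNX proteins are transcription factors that bind DNA through a Runt domain. Cbfb does not bind DNA itself, but binds the Runt domain of every family member, strengthens its hold on DNA and protects RUNX1 from degradation. RUNX1 is known for its part in blood stem and progenitor cells and RUNX3 for its part in cytotoxic and innate lymphocytes, whereas RUNX2 is best known from bone and is also found in plasmacytoid dendritic cells.

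The study followed the start of the T-lineage program in Cas9-LP cells, a lymphoid progenitor (LP) line that was made from mouse fetal liver, is *Ebf1*-deficient and carries Cas9 at Rosa26, so that all groups share both. LPs were kept on OP9 stroma, and Phase 1 cells were LPs moved to OP9-DLL4, stroma that carries a Notch ligand, for 2 days. Retroviral sgRNA vectors with the surface marker hNGFR were used, sgControl was directed against luciferase, and hNGFR+CD45+ cells were sorted 5 days after transduction, so a library is a mixture of cells with different edits. The first experiment compared sgControl with sgCbfb in LPs and in Phase 1 cells, the second compared sgControl, sgCbfb, sgCTCF and sgMed12 in LPs, and each of the 8 groups had 3 libraries. CTCF is an architectural DNA-binding protein and Med12 a subunit of the Mediator kinase module. Levels are CPM, the share of a library's reads on genes that a gene took, scaled to a total of 1e6, from QuantSeq, which reads the 3′ end of polyadenylated mRNA. Each experiment was normalized on its own, and no test was made across them.

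Libraries of the first experiment held 1363263 to 1743319 reads on genes, and those of the second 3354483 to 4326782. The level that a count of 0 allows (3 reads) was 1.72 to 2.20 CPM in the former and 0.693 to 0.894 CPM in the latter, for counting error only. All 4 genes lay above this floor in every library, and the lowest count was 25 reads, of *Runx2* in Phase 1 sgControl cells. Of 9 lymphoid progenitor markers none was at 0 in any group, and *Cd79a*, a component of the B cell receptor, was at 0 in every library. *Ebf1* tags were at 143 to 403 CPM in the first experiment, and a 3′ tag does not show whether a transcript is functional. The summed level of 12 stromal markers was 2.02 to 44.6 CPM over all libraries of both experiments, and *Dcn*, *Col3a1* and *Postn* were at 0 in every one.

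On GRCm38, *Cbfb* (ENSMUSG00000031885) lies at chr8:105170674-105217989 on the plus strand, and *Runx3* (ENSMUSG00000070691) at chr4:135120652-135177990, also on the plus strand. *Runx1* (ENSMUSG00000022952, chr16:92601466-92826149) and *Runx2* (ENSMUSG00000039153, chr17:44495987-44814797) lie on the minus strand. *Runx1* shares 106 exonic bases with the antisense gene *Gm26626*, which had 0 reads in every library. *Runx2* shares 519 exonic bases with the antisense gene *Runx2os1*, which had 0 to 27 reads per library. Whether the counting used strand is not given in the sources used here, so reads of *Runx2* and *Runx2os1* might not be told apart where they overlap.

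RUNX proteins recognise TGTGGT, or ACCACA when it is read on the other strand, among other forms of their site. This motif was looked for because the RUNX genes are themselves the readout. Other forms were neither searched nor marked. RefSeq promoter windows on GRCm38.p6, from 250 bases before an annotated start to 50 bases into the transcript, were found for all 4 genes, with a second window each for *Runx1* and *Runx3*. The windows at the *Runx1* upstream start, the *Runx2* start and the *Runx3* upstream start share a stretch of 18 bases with 2 copies of the motif. These 30-base windows are shown because they hold the longest sequence that promoter windows of all 3 genes have in common, 5′ to 3′ on the gene's own strand, with the motifs in capitals.
Runx1: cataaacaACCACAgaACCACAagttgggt
Runx2: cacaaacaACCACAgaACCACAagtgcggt
Runx3: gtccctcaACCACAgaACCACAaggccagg
They lie at chr16:92826025-92826054 (minus strand), chr17:44814583-44814612 (minus strand) and chr4:135120503-135120532 (plus strand). With the start counted as +1, the stretch begins at position 27 in *Runx1* and 22 in *Runx2*, and 136 bases before the start in *Runx3*. *Runx2* has 1 more copy of the motif, 80 bases before its start. Of 32851 promoter windows, 4 held the shared stretch on either strand. Of these, 3 are the windows it was chosen from, so their matches were fixed in advance. The fourth, of *Gm16225*, covers the same *Runx3* site from the opposite strand. The motif alone was held at least once by 16.8% of all windows, and at least 2 times by 1.81%. The windows of *Cbfb*, of the downstream *Runx1* start and of the downstream *Runx3* start held none. Reads from the 3′ end do not show which start a transcript used, and a match of letters is not evidence of binding.

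**Figure D1:**
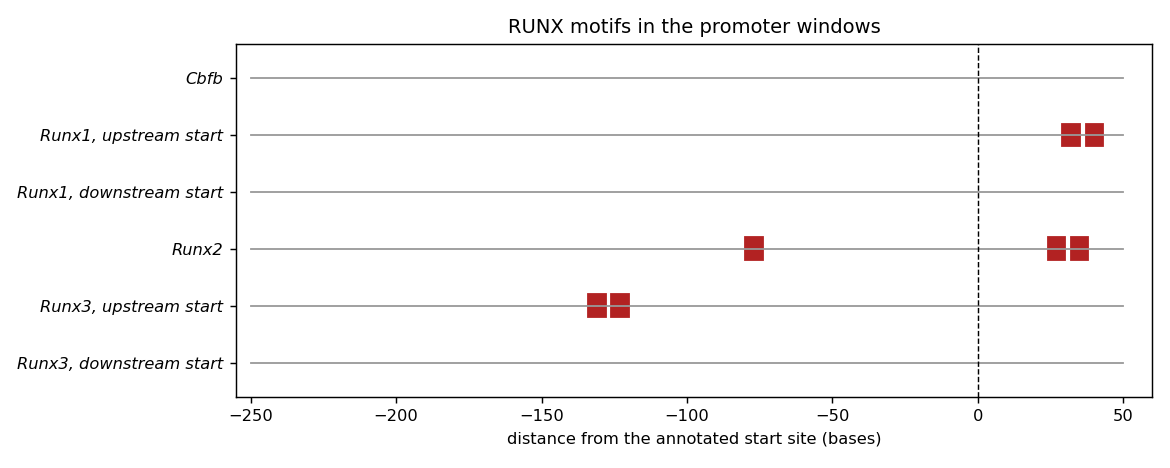
RUNX motifs (TGTGGT on either strand, red boxes) in the 300-base promoter windows of *Cbfb*, *Runx1*, *Runx2* and *Runx3*, by distance in bases from the annotated start (dashed line). The upstream *Runx1*, the *Runx2* and the upstream *Runx3* windows each hold a close pair, *Runx2* holds 1 more, and the other 3 windows hold none.

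The gene that the sgRNAs target was examined first. *Cbfb* fell with sgCbfb in LPs of both experiments. In the first experiment it was at 92.7, 91.0 and 75.8 CPM in sgControl LPs and at 45.8, 39.0 and 35.7 CPM in sgCbfb LPs, and every sgCbfb library was below every sgControl library. The log2 fold change was -1.09 (95% interval -1.55 to -0.63, limma adjusted p = 0.0055). This call was lost when limma's moderation of the variances was left out (adjusted p = 0.069). In the second experiment the sgControl LPs were at 110.0, 109.0 and 123.9 CPM and the sgCbfb LPs at 48.3, 41.6 and 55.4 CPM, again with no overlap. There the log2 fold change was -1.23 (95% interval -1.57 to -0.89, limma adjusted p = 4.3e-06). Tags remained in every sgCbfb library, and as they come from the 3′ end they do not measure how many alleles were edited. The paper presents an immunoblot of LPs, made 3 days after transduction, as evidence that Cbfb protein was lost.

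The *Cbfb* libraries overlapped in Phase 1 cells. They were at 73.4, 81.3 and 44.7 CPM with sgControl and at 44.1, 63.5 and 54.2 CPM with sgCbfb. The log2 fold change of -0.27 did not pass the test (95% interval -0.73 to 0.20, limma adjusted p = 0.59). Replicate 3 of sgControl was within the range of the sgCbfb libraries, and without it the log2 fold change was -0.53, again not past the test. The sgCbfb effect on *Cbfb* differed between the stages by 0.82 on the log2 scale, which did not pass the interaction test (95% interval 0.17 to 1.48, limma adjusted p = 0.31).

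*Runx1* was higher with sgCbfb in every comparison. In LPs of the first experiment it was at 456, 351 and 351 CPM with sgControl and at 872, 753 and 714 CPM with sgCbfb. The lowest sgCbfb library was thus well above the highest sgControl library. The mean rose 2.02-fold, with a log2 fold change of 1.02 (95% interval 0.77 to 1.27, limma adjusted p = 1.3e-05). The LPs of the second experiment were at 249, 283 and 239 CPM in sgControl and 583, 650.3 and 561 CPM in sgCbfb, a 2.33-fold rise of the mean with no overlap. The log2 fold change was 1.22 (95% interval 1.01 to 1.42, limma adjusted p = 1.2e-09). The same change was seen after Notch stimulation, where *Runx1* was at 258, 296 and 280.2 CPM in sgControl and at 626, 562 and 621 CPM in sgCbfb Phase 1 cells. This was a 2.17-fold rise of the mean and a log2 fold change of 1.11 (95% interval 0.86 to 1.36, limma adjusted p = 2.1e-06). A difference between the sgCbfb effects in Phase 1 cells and LPs was not detected, at 0.10 on the log2 scale (95% interval -0.26 to 0.45, limma adjusted p = 0.91).

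*Runx2* responded in a stage-dependent manner. In LPs of the first experiment it was at 68.5, 42.1 and 47.5 CPM with sgControl and at 49.4, 45.9 and 47.8 CPM with sgCbfb, and the libraries overlapped. The log2 fold change was -0.11 (95% interval -0.61 to 0.39, limma adjusted p = 0.94). After Notch stimulation it was at 21.2, 32.9 and 18.3 CPM with sgControl and at 86.9, 73.5 and 63.1 CPM with sgCbfb. These groups were far apart, and the log2 fold change of 1.62 (95% interval 1.11 to 2.12, limma adjusted p = 0.00013) was the largest of any of the 4 genes in a comparison with sgControl. The difference between the stages was 1.73 on the log2 scale (95% interval 1.02 to 2.44, limma adjusted p = 0.0087), and *Runx2* was the only 1 of the 4 genes to pass this interaction test, which 1.27% of the 13239 genes tested passed. Without moderated variances the interaction did not pass (adjusted p = 0.092).

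The second experiment, sequenced more deeply, showed a rise of *Runx2* in sgCbfb LPs. Whether the LPs of the experiments differ in this was not tested. It was at 46.7, 56.7 and 46.5 CPM with sgControl and at 67.7, 88.8 and 65.8 CPM with sgCbfb, and the libraries did not overlap. The log2 fold change was 0.55 (95% interval 0.21 to 0.89, limma adjusted p = 0.025). The call was lost without sgControl replicate 1 or 3 or without sgCbfb replicate 2, with log2 fold changes of 0.42 to 0.64 and adjusted p values of 0.010 to 0.19 over all fits that left out 1 library. *Runx2os1* was at 4.57 ± 2.38 CPM with sgCbfb and at 2.76 ± 0.29 CPM with sgControl in these LPs (SD, n = 3), and at 6.63 ± 4.66 and 1.37 ± 1.41 CPM in Phase 1 cells. It passed the test in neither (limma adjusted p = 0.52 and 0.14).

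*Runx3* did not pass the test with sgCbfb at either stage. In LPs of the first experiment it was at 292, 313 and 254 CPM with sgControl and at 305, 303 and 279 CPM with sgCbfb, with a log2 fold change of 0.05 (95% interval -0.18 to 0.28, limma adjusted p = 0.94). In the second, the sgControl LPs were at 348, 322 and 338 CPM and the sgCbfb LPs at 331, 356 and 339 CPM, with a log2 fold change of 0.03 (95% interval -0.18 to 0.23, limma adjusted p = 0.92). These intervals leave room for a change of no more than 0.28 in either direction on the log2 scale. All 3 Phase 1 sgCbfb libraries, at 405, 447 and 415 CPM, were above the sgControl libraries at 342, 361 and 352 CPM. The log2 fold change of 0.26 did not pass the test over all genes (95% interval 0.03 to 0.50, limma adjusted p = 0.21).

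Counted together, 2 of the 4 genes passed the test with sgCbfb in LPs of the first experiment, where 2.85% of the 13239 genes tested did. Their libraries did not overlap in 2 of 4, against 17.5% of all genes tested. Among Phase 1 cells 2 of the 4 passed, against 5.97% of the genes tested, and 3 of the 4 did not overlap, against 21.0%. For LPs of the second experiment the count was 3 of the 4, against 12.5% of 13177 genes, and 3 did not overlap, against 30.5%. *Cbfb* is the targeted gene and counts among them in LPs of both experiments.

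**Figure D2:**
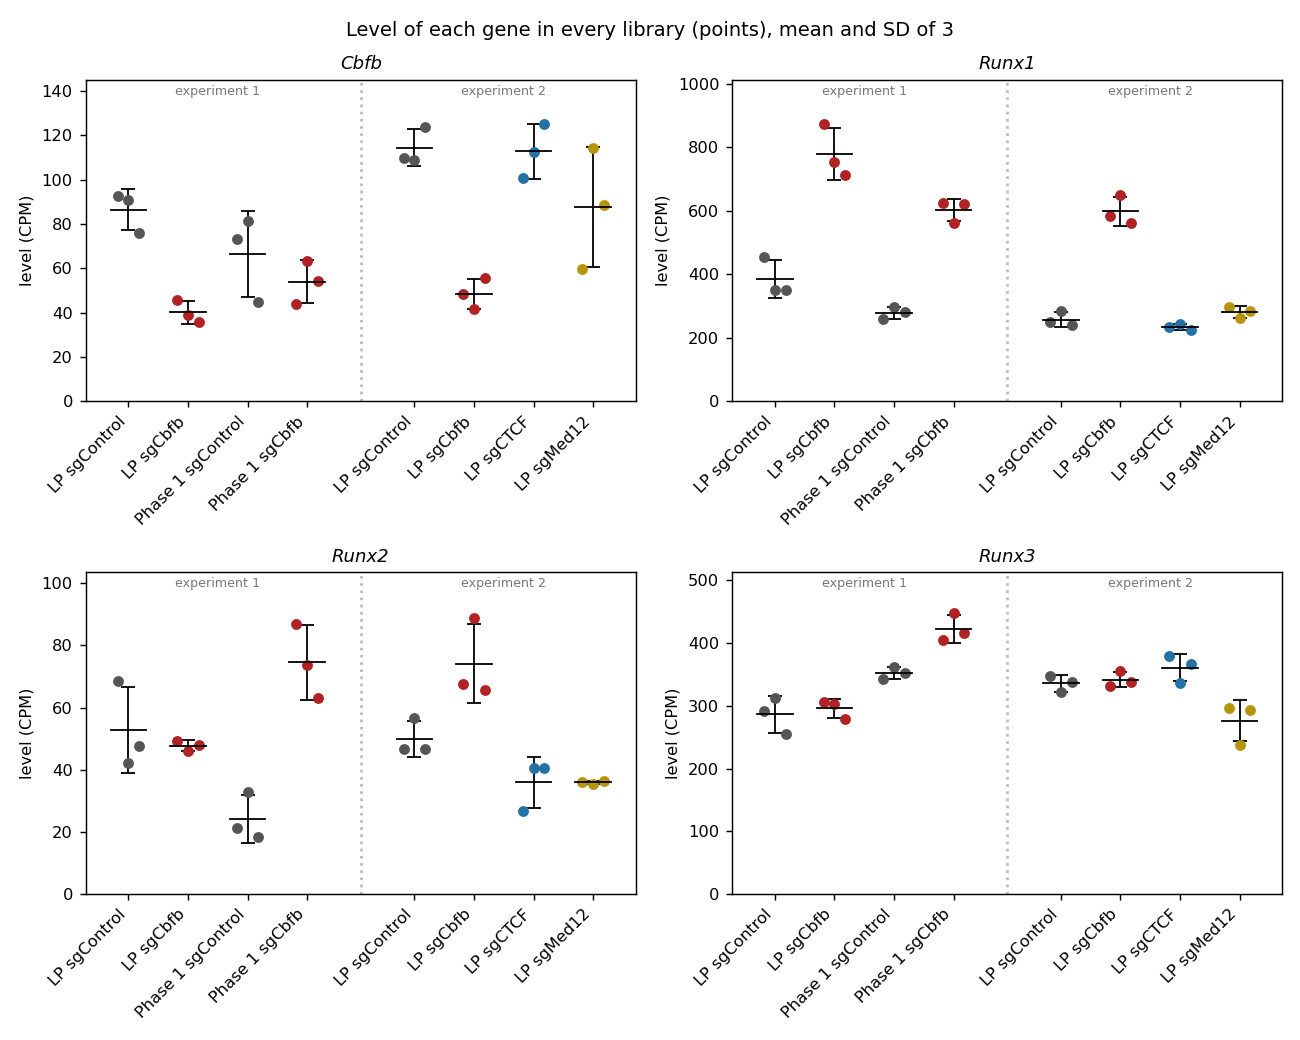
Level in CPM (y axis, from 0) of *Cbfb*, *Runx1*, *Runx2* and *Runx3* in each of the 24 libraries (points), with the mean (long bar) and SD (error bar) of 3 libraries in each of the 8 groups (x axis), and the experiments separated by a dotted line. *Runx1* is higher in every sgCbfb library than in every other library of its experiment, and *Runx2* stands apart in Phase 1, at 63.1 to 86.9 CPM with sgCbfb and 18.3 to 32.9 CPM with sgControl.

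In bulk RNA, fewer cells that express a gene and less RNA per cell cannot be told apart, and other cell type markers moved with sgCbfb. Counts of these markers stand beside the share of all genes tested that passed. It was 2.85% in LPs of the first experiment, 5.97% in Phase 1 cells and 12.5% in LPs of the second. Of 8 plasmacytoid dendritic cell markers, 4 fell and none rose in LPs of the first experiment, and their summed level was 1921 to 2086 CPM with sgControl and 699 to 764 CPM with sgCbfb. Among Phase 1 cells 3 of the 8 fell and none rose, at 514 to 755 and 443 to 523 CPM, and in LPs of the second experiment 4 fell and 2 rose, at 1235 to 1614 and 500.1 to 899 CPM. None of these markers was at 0 in any group. *Siglech* and *Spib* had means of 0.278 and 0.382 CPM in sgCbfb LPs of the second experiment, under the floor of 3 reads. The other 6 had means over 10 CPM there. Of 12 innate lymphoid and cytotoxic markers, 8 were tested in Phase 1 cells, where 5 fell and none rose, and the sum was 2833 to 3648 CPM with sgControl and 268 to 350.1 CPM with sgCbfb. *Gzma*, a granzyme, held most of this sum, at a mean of 2769 CPM with sgControl and 85.9 CPM with sgCbfb, and *Ncr1* and *Eomes* were at 0 in both groups. In LPs 3 of 8 fell and none rose in the first experiment (204 to 253 and 135 to 174 CPM), and 4 of 9 fell and 1 rose in the second (199 to 263 and 146 to 161 CPM). The summed level of 9 erythroid, megakaryocyte and mast cell markers, nearly all of it *Hbb-bt*, a globin, was 111 to 160 CPM with sgControl and 539 to 601 CPM with sgCbfb in LPs of the first experiment, 1599 to 1670 and 2447 to 2654 CPM in Phase 1 cells, and 128 to 143 and 794 to 954 CPM in the second experiment. *Hbb-bt* rose in all 3, *Cpa3* fell in Phase 1 cells, the other markers tested did not pass, and *Pf4* was at 0 throughout. Of 11 myeloid markers 7 were tested, and the sum was 81.7 to 98.0 CPM with sgControl and 133 to 160 CPM with sgCbfb in LPs of the first experiment. There none passed by limma, 1 passed by edgeR and 2 had an unadjusted p under 0.05. In Phase 1 cells (50.1 to 65.3 and 139 to 146 CPM) and in LPs of the second experiment (70.1 to 88.9 and 84.1 to 134 CPM) 2 rose and none fell.

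Markers of progenitor and lymphoid identity also moved with sgCbfb. Their counts stand beside the same shares of all genes tested, 2.85%, 5.97% and 12.5%. The summed level of 9 lymphoid progenitor markers was 2394 to 2724 CPM in sgControl and 2755 to 3417 CPM in sgCbfb LPs of the first experiment, where 3 rose and none fell. For Phase 1 cells it was 1654 to 1676 and 2305 to 2575 CPM (4 rose, 1 fell), and in the second experiment 2147 to 2391 and 2479 to 2776 CPM (4 rose, 4 fell). None of these sums overlapped. The 10 Notch and T cell markers summed to 267 to 388 and 461 to 482 CPM in LPs of the first experiment (2 rose, none fell), to 183 to 252 and 420.5 to 534 CPM in those of the second (3 rose, 2 fell), and to 1419 to 1630 and 1069 to 1170.0 CPM in Phase 1 cells (none rose, 4 fell). In LPs of both experiments, 2 of the 10 had a mean over 10 CPM with sgControl and 3 with sgCbfb. *Notch1* held most of the sum in sgCbfb LPs of the second experiment, at 407 CPM, where *Tcf7* and *Cd3g* were at 0. The 7 B-lineage markers, of which 4 were tested, summed to 297 to 410.2 and 169 to 216 CPM in LPs of the first experiment (1 fell) and to 244 to 318 and 165 to 218 CPM in those of the second (2 fell). The Phase 1 groups overlapped, at 150.4 to 212 and 148 to 181 CPM, and there 0 passed by limma, by edgeR or at an unadjusted p under 0.05. In each sgControl and sgCbfb group, only 1 of the 7 B-lineage markers had a mean over 10 CPM. This was *Ebf1*, for which the line is deficient, in the first experiment and in sgCbfb LPs of the second (188 CPM). The part of these shifts in the levels of the RUNX genes was not tested.

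The comparison of stages asked how the family changes when LPs receive Notch signals. In sgControl cells, *Runx1* and *Runx2* were lower in Phase 1 cells than in LPs. *Runx1* went from a mean of 386 ± 60.3 to 278 ± 19.0 CPM (SD, n = 3), with no overlap and a log2 fold change of -0.46 (95% interval -0.71 to -0.21, limma adjusted p = 0.021). This call was lost without replicate 1 of either group, with median-of-ratios scaling (adjusted p = 0.054), with only these groups in the fit (adjusted p = 0.092) and without moderated variances (adjusted p = 0.079). *Runx2* went from 52.7 ± 13.9 to 24.1 ± 7.72 CPM, also with no overlap, and a log2 fold change of -1.11 (95% interval -1.61 to -0.60, limma adjusted p = 0.0055). Without LP sgControl replicate 1, which held the highest *Runx2* level of its group, the log2 fold change was -0.91 and the adjusted p 0.055, and with only these groups in the fit it was 0.051. The LP sgControl libraries used here are also those of the sgCbfb comparison in LPs. The summed plasmacytoid dendritic cell markers, given above, were lower in Phase 1 as well, and 3 of the 8 fell (*Tcf4*, *Ccr9* and *Cox6a2*). Over all genes tested, 6.48% passed between these groups. The sums of the lymphoid progenitor markers (2 rose, 5 fell) and of the B-lineage markers (2 fell) were lower too, whereas those of the Notch and T cell markers (9 of 10 rose), of the innate and cytotoxic markers, at 204 to 253 and 2833 to 3648 CPM (5 rose, none fell), and of the erythroid, megakaryocyte and mast cell markers, at 111 to 160 and 1599 to 1670 CPM (2 rose, none fell), were higher. The part of these shifts in the levels of the RUNX genes was not tested.

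*Runx3* and *Cbfb* did not pass the test between the stages in sgControl cells. *Runx3* was at 286 ± 29.6 CPM in LPs and 352 ± 9.48 CPM in Phase 1 cells (SD, n = 3), with no overlap and a log2 fold change of 0.30 (95% interval 0.07 to 0.53, limma adjusted p = 0.12). *Cbfb* was at 86.5 ± 9.30 CPM in LPs and 66.5 ± 19.2 CPM in Phase 1 cells, where the libraries overlapped, with a log2 fold change of -0.41 (95% interval -0.88 to 0.05, limma adjusted p = 0.32). Of the 4 genes 2 passed the test, against 6.48% of the 13239 genes tested, and 3 did not overlap, against 21.8%. Of 10 Notch and T cell markers, 9 rose between the same groups.

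Of the 4 genes, only *Runx3* passed the test between the stages in sgCbfb cells. *Runx3* rose from 296 ± 14.7 CPM in LPs to 422 ± 22.2 CPM in Phase 1 cells (SD, n = 3), a log2 fold change of 0.51 (95% interval 0.28 to 0.74, limma adjusted p = 0.012). The call was lost without LP sgCbfb replicate 3 or Phase 1 sgCbfb replicate 2 or 3, at log2 fold changes of 0.47 to 0.54 over all fits with 1 library left out and an adjusted p of up to 0.096. The stage effects on *Runx3* in sgCbfb and sgControl cells differed by 0.21, which did not pass the interaction test (limma adjusted p = 0.71). *Runx2* was higher in Phase 1 than in LP sgCbfb libraries, at 74.5 ± 11.9 and 47.7 ± 1.75 CPM, and did not pass the test over all genes (log2 fold change 0.62, limma adjusted p = 0.26), and *Runx1* was lower, at 603 ± 35.3 and 779.5 ± 82.3 CPM (log2 fold change -0.37, limma adjusted p = 0.14). One of the 4 genes passed, against 2.24% of the genes tested, and 3 did not overlap, against 18.9%.

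**Figure D3:**
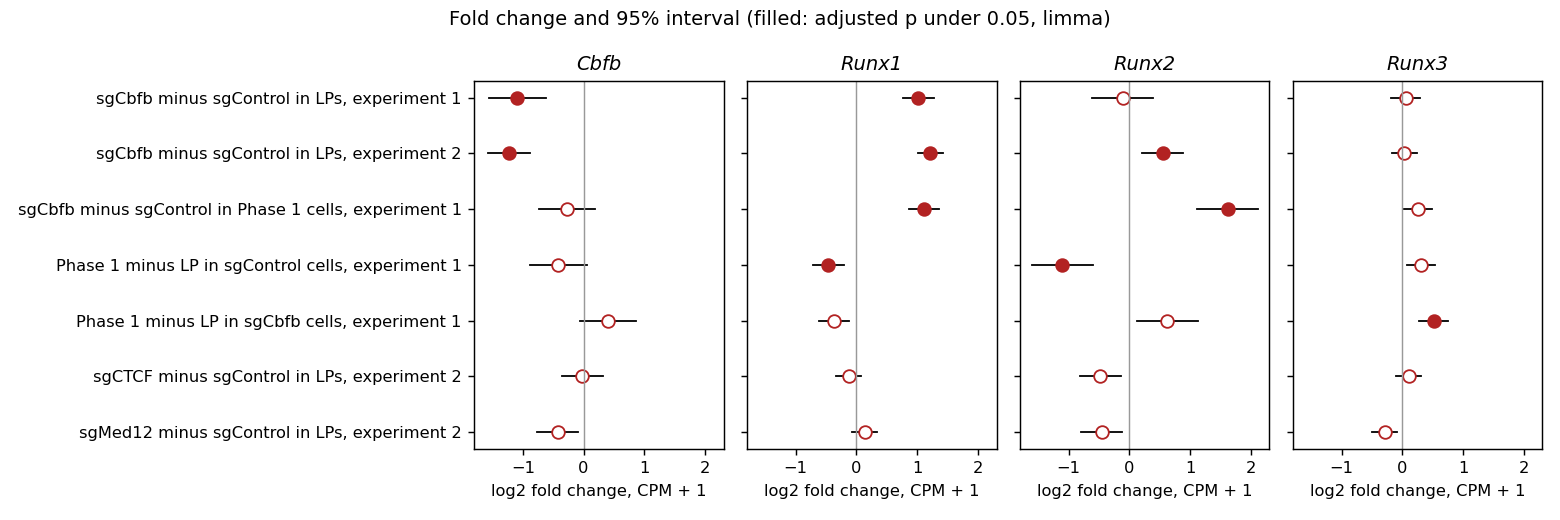
Log2 fold change on the log2(CPM + 1) scale (x axis, points) with its 95% interval (lines) for *Cbfb*, *Runx1*, *Runx2* and *Runx3* in 7 comparisons (y axis), filled where the limma adjusted p is under 0.05. *Runx1* rises with sgCbfb in all 3 comparisons, by 1.02 to 1.22, *Runx2* ranges from -0.11 to 1.62 with sgCbfb, and no gene passes with sgCTCF or sgMed12.

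The sgCTCF and sgMed12 libraries showed whether loss of other regulators moves the RUNX genes in LPs. None of the 4 genes passed the test against sgControl in either, where 10.3% of the genes tested did with sgCTCF and 7.22% with sgMed12. At an unadjusted p under 0.05 there was 1 of the 4 with sgCTCF (*Runx2*) and 3 with sgMed12 (*Cbfb*, *Runx2* and *Runx3*), and edgeR's quasi-likelihood test also called none. The libraries did not overlap sgControl for 1 of the 4 genes with sgCTCF, against 31.1% of the genes tested, and for 2 of the 4 with sgMed12, against 21.3%. *Ctcf* itself fell with sgCTCF, from 391 ± 30.7 to 306 ± 29.96 CPM (SD, n = 3, limma adjusted p = 0.021). Against sgCbfb LPs, at a mean of 342 CPM, the *Ctcf* difference did not pass (log2 difference -0.16, limma adjusted p = 0.27) and the libraries overlapped. *Med12* was at 5.14 ± 1.26 CPM with sgControl and 7.01 ± 3.38 CPM with sgMed12, so its tags did not show the edit. The paper presents immunoblots of LPs, made 3 days after transduction, as evidence that CTCF and Med12 protein was depleted. The 3 comparisons with sgControl in this experiment share their sgControl libraries.

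*Runx1* was at 235, 245 and 226 CPM with sgCTCF, with a log2 fold change of -0.13 against sgControl (95% interval -0.33 to 0.08, limma adjusted p = 0.51). With sgMed12 it was at 298, 261 and 286 CPM, a log2 fold change of 0.13 (95% interval -0.07 to 0.34, limma adjusted p = 0.45). Both groups overlapped sgControl. *Runx1* was lower than with sgCbfb in both, with log2 differences of -1.34 for sgCTCF and -1.08 for sgMed12 (limma adjusted p = 1.2e-10 and 1.1e-08).

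*Runx2* was below sgControl in every library of both groups. It was at 26.6, 40.7 and 40.7 CPM with sgCTCF and at 35.9, 35.5 and 36.3 CPM with sgMed12. The log2 fold changes of -0.48 (95% interval -0.82 to -0.14, limma adjusted p = 0.062) and -0.46 (95% interval -0.80 to -0.12, limma adjusted p = 0.085) did not pass the test. The first passed with only the groups compared in the fit (adjusted p = 0.026), with the replicate number as a block (adjusted p = 0.042) and without sgMed12 replicate 1 or 2. With means of 36.0 CPM for sgCTCF, 35.9 CPM for sgMed12 and 74.1 CPM for sgCbfb, *Runx2* was lower than with sgCbfb in both, with log2 differences of -1.03 and -1.01 (limma adjusted p = 3.1e-05 and 6.5e-05).

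*Runx3* was lowest with sgMed12, at 296, 238 and 293 CPM. Each of these was below every sgControl library, and the log2 fold change of -0.29 did not pass the test (95% interval -0.49 to -0.08, limma adjusted p = 0.077). Against sgCTCF, at 379, 337 and 367 CPM, the difference was -0.39 (95% interval -0.60 to -0.19, limma adjusted p = 0.0069). *Cbfb* was at 101, 112 and 125 CPM with sgCTCF and at 59.9, 114 and 88.6 CPM with sgMed12, with log2 fold changes of -0.02 (limma adjusted p = 0.96) and -0.43 (limma adjusted p = 0.11). Without sgMed12 replicate 2, the highest of its group, the *Cbfb* difference with sgMed12 was -0.64 and passed (adjusted p = 0.0016). In the remaining comparisons, 3 of the 4 genes passed between sgCTCF and sgCbfb, against 22.3% of the genes tested, and 3 did not overlap, against 39.6%. Between sgMed12 and sgCbfb all 4 passed, against 16.8%, and 4 did not overlap, against 28.1%, and the *Runx3* call there, at -0.31 (limma adjusted p = 0.030), was lost under 5 of the other settings tried. Between sgMed12 and sgCTCF 1 of the 4 passed, against 20.0%, and 2 did not overlap, against 32.4%.

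The reads of each library were also set against each other within the family. QuantSeq gives about 1 tag per transcript whatever its length, but how well a 3′ end is captured differs between genes, so the shares are read between groups and not between genes. They are a description, with no test. The summed level of the 3 RUNX genes was 725 ± 83.2 CPM in sgControl and 1123 ± 94.8 CPM in sgCbfb LPs of the first experiment (SD, n = 3), and 643 ± 19.2 and 1014 ± 70.6 CPM in the second. The Phase 1 libraries had 654 ± 34.4 (sgControl) and 1100.0 ± 16.9 CPM (sgCbfb). In all 3 cases the sgCbfb libraries were above the sgControl libraries. The share of *Runx1* in this sum went from 53.1% to 69.3% and from 39.9% to 58.9% in LPs, and from 42.5% to 54.8% in Phase 1 cells.

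The number of *Cbfb* tags for every 100 RUNX tags, which combines the fall of one and the rise of the other, was 11.9 ± 0.83 in sgControl and 3.57 ± 0.16 in sgCbfb LPs of the first experiment (SD, n = 3). In the second these were 17.8 ± 1.82 and 4.82 ± 0.98. For Phase 1 cells, where *Cbfb* alone overlapped, the ratio was at 6.88 to 11.8 in the sgControl libraries and at 3.95 to 5.86 in the sgCbfb libraries, with no overlap. With sgCTCF it was 17.8 ± 2.02, next to that of sgControl, and with sgMed12 it ranged from 9.51 to 21.4.

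**Figure D4:**
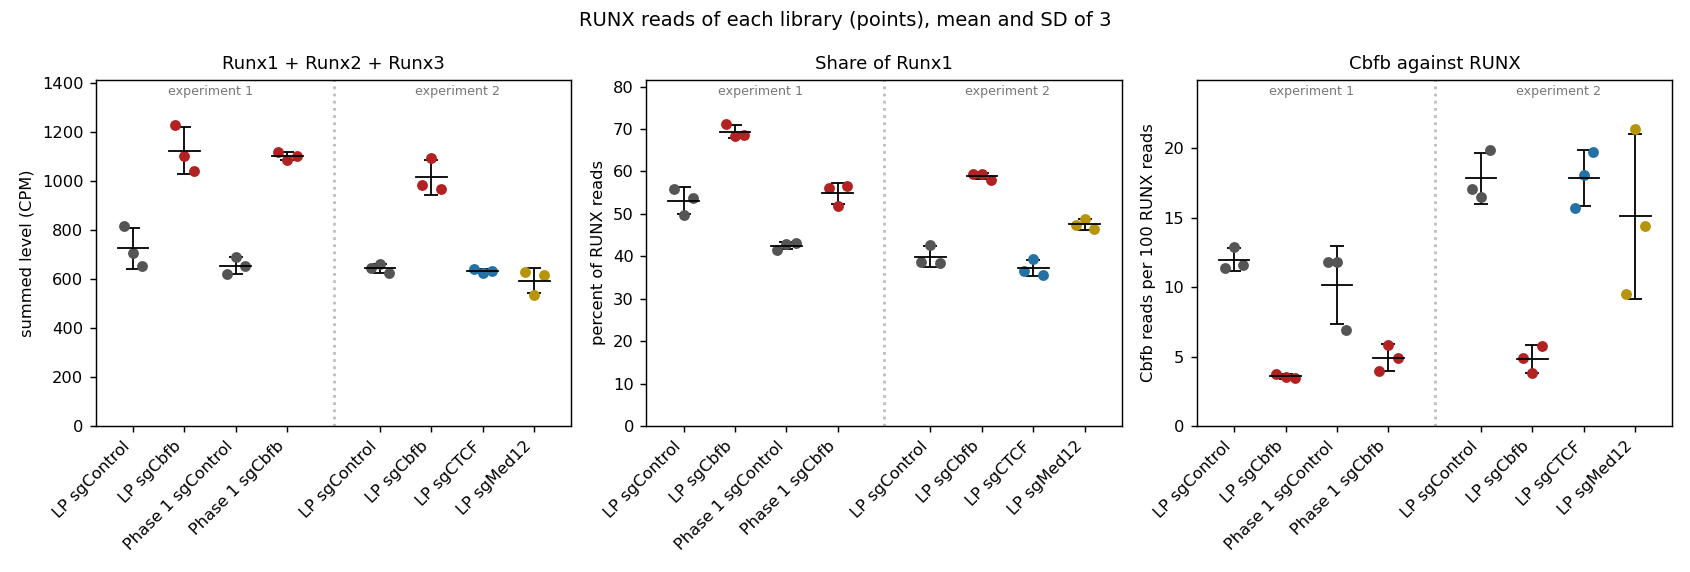
Summed level of *Runx1*, *Runx2* and *Runx3* in CPM (left), the percent of these reads that are *Runx1* (middle) and *Cbfb* reads per 100 RUNX reads (right), each from 0 on the y axis, for every library (points) with the mean and SD of 3 per group (x axis). The sgCbfb groups have the highest sum and the lowest *Cbfb* ratio of their experiment, at 3.57 to 4.91 reads per 100.

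The other genes of the pathway were taken from lists of RUNX partners, modifiers and targets. Their counts stand against the share of all genes tested that passed, which was 2.85% with sgCbfb in LPs of the first experiment, 5.97% in Phase 1 cells and 12.5% in LPs of the second, and 10.3% with sgCTCF and 7.22% with sgMed12. Of 18 coactivators and DNA-binding partners, 17 were tested. With sgCbfb, 1 rose and none fell in LPs of the first experiment, 2 rose and 2 fell in Phase 1 cells, and 2 rose and none fell in LPs of the second, with medians of 0.14, 0.20 and -0.02 on the log2 scale beside 0.00, 0.06 and -0.01 over all genes tested. *Myb*, a progenitor transcription factor that binds beside RUNX, rose in LPs from 527 to 861 CPM (log2 fold change 0.71, limma adjusted p = 0.00016) and in the second experiment from 497 to 755 CPM. Phase 1 cells showed the opposite change of *Myb*, a fall from 911 to 632 CPM (log2 fold change -0.53, limma adjusted p = 0.0022). *Gata3*, a T-lineage factor, fell in Phase 1 cells from 141.5 to 43.2 CPM (log2 fold change -1.69, limma adjusted p = 3.5e-06). *Lmo2*, a bridging protein of progenitor complexes, rose in Phase 1 cells from a mean of 3.32 to 15.5 CPM and in the second experiment from 13.4 to 29.4 CPM (limma adjusted p = 0.010 and 0.0010). With sgCTCF 2 of these genes fell and none rose, and with sgMed12 3 fell and none rose, among them *Prmt1*, an arginine methyltransferase, from 881 to 618 CPM (limma adjusted p = 0.035). By edgeR 1 passed with sgMed12.

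Of 15 corepressors 14 were tested, and none passed in LPs of the first experiment with limma or with edgeR, while 3 had an unadjusted p under 0.05. Among Phase 1 cells 1 rose and 1 fell, and in LPs of the second experiment 1 rose and 2 fell, against 5.97% and 12.5% of all genes tested, and the medians were -0.08, -0.03 and -0.12. *Cbfa2t3*, of the ETO family, fell in Phase 1 cells from 280.2 to 159 CPM (log2 fold change -0.81, limma adjusted p = 0.00069). *Tle4*, a Groucho corepressor, fell with sgCTCF from 65.6 to 46.9 CPM (limma adjusted p = 0.046), and no corepressor passed with sgMed12 by limma or edgeR, where 4 had an unadjusted p under 0.05. *Tle2*, a Groucho corepressor as well, fell in LPs of the second experiment from 2.19 to 0.257 CPM (limma adjusted p = 0.041), where the sgCbfb mean was under the floor of 3 reads and the libraries overlapped.

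Of 12 kinases and ubiquitin ligases known to modify RUNX proteins, all were tested. None passed with sgCbfb in LPs of either experiment by limma or edgeR (1 in each had an unadjusted p under 0.05), while 3 rose and none fell in Phase 1 cells. These were *Mapk3*, the ERK1 kinase, from 53.5 to 118 CPM (limma adjusted p = 0.00068), *Cdc20*, an activator of the anaphase-promoting complex, from 97.6 to 166 CPM (limma adjusted p = 0.020) and *Src*, from 0 reads to 4.4 CPM (limma adjusted p = 0.018). The median was 0.14, beside 0.06 for all genes. With sgCTCF 2 rose and none fell, among them *Smurf1*, a ubiquitin ligase, from 10.8 to 21.0 CPM (limma adjusted p = 0.017), and with sgMed12 3 fell and none rose, among them *Cdc20* from 226 to 161 CPM (limma adjusted p = 0.034). By edgeR none of the 12 passed with sgMed12.

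Genes known as RUNX targets in blood cells went both ways with sgCbfb. Of 24 such genes 16 were tested in the first and 15 in the second experiment. Of these, 2 rose and 2 fell in LPs of the first, in Phase 1 cells 3 rose and 4 fell, and in LPs of the second 5 rose and 5 fell. The shares of all genes tested that passed were 2.85%, 5.97% and 12.5%, and the list medians were 0.20, 0.00 and -0.21. *Bcl11b*, a factor of T-lineage commitment, fell in all 3 comparisons, from 76.3 to 13.6 CPM and from 55.1 to 2.95 CPM in LPs and from 438 to 37.5 CPM in Phase 1 cells (limma adjusted p = 1.4e-06, 2.3e-12 and 3.9e-09). *Zbtb7b*, the CD4-lineage factor ThPOK, rose in Phase 1 cells from 1.6 to 16.6 CPM and in the second experiment from 6.99 to 23.2 CPM (limma adjusted p = 0.00030 and 0.00027). *Tcf7*, the T cell factor TCF1, and *Itgae*, an integrin chain, fell in Phase 1 cells, from 147.5 to 12.7 CPM and from 12.8 to 0.641 CPM (limma adjusted p = 6.3e-05 and 0.0011). The *Itgae* mean of 0.641 CPM and the *Zbtb7b* mean of 1.6 CPM were under the floor of 3 reads. *Tcf7* and *Itgae* rose with sgCTCF, the latter to 3.09 CPM, and there 5 of the 15 rose and 2 fell. With sgMed12, none of the 15 passed by limma or edgeR and 1 had an unadjusted p under 0.05.

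Of 18 genes taken from the neighbourhood of the members, 15 were tested. With sgCbfb 1 rose and none fell in LPs of the first experiment and in Phase 1 cells, and 1 rose and 1 fell in LPs of the second, with medians of 0.05, 0.18 and -0.05, where 2.85%, 5.97% and 12.5% of all genes tested passed. The gene that rose was *Clic5*, a chloride intracellular channel gene, each time. It lies on chromosome 17, 215.8 kb from *Runx2*. In LPs it was at 0.59 to 1.86 CPM with sgControl and at 6.42 to 13.2 CPM with sgCbfb in the first experiment, and at 0.26 to 1.48 and 2.68 to 10.7 CPM in the second (limma adjusted p = 0.0082 and 0.0030). In Phase 1 cells it was at 0 to 0.65 CPM and at 4.13 to 7.78 CPM (limma adjusted p = 0.0030), and in none of these did the libraries overlap. The sgControl levels of *Clic5* were near or under the floor of 3 reads. This floor was 1.72 to 2.20 CPM in the first and 0.693 to 0.894 CPM in the second experiment. *Clic4*, of the same family and 36.0 kb from *Runx3*, fell with sgMed12, from 264 to 176 CPM (limma adjusted p = 0.0012). *Setd4* and *Cbr1*, 757.3 and 779.7 kb from *Runx1*, rose with sgCTCF, from 16.1 to 38.8 and from 13.6 to 23.8 CPM (limma adjusted p = 0.00071 and 0.018). These genes were named for the size of their changes. Over all genes tested, 10.3% passed with sgCTCF and 7.22% with sgMed12. Whether distance to a member plays a part was not tested.

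**Figure D5:**
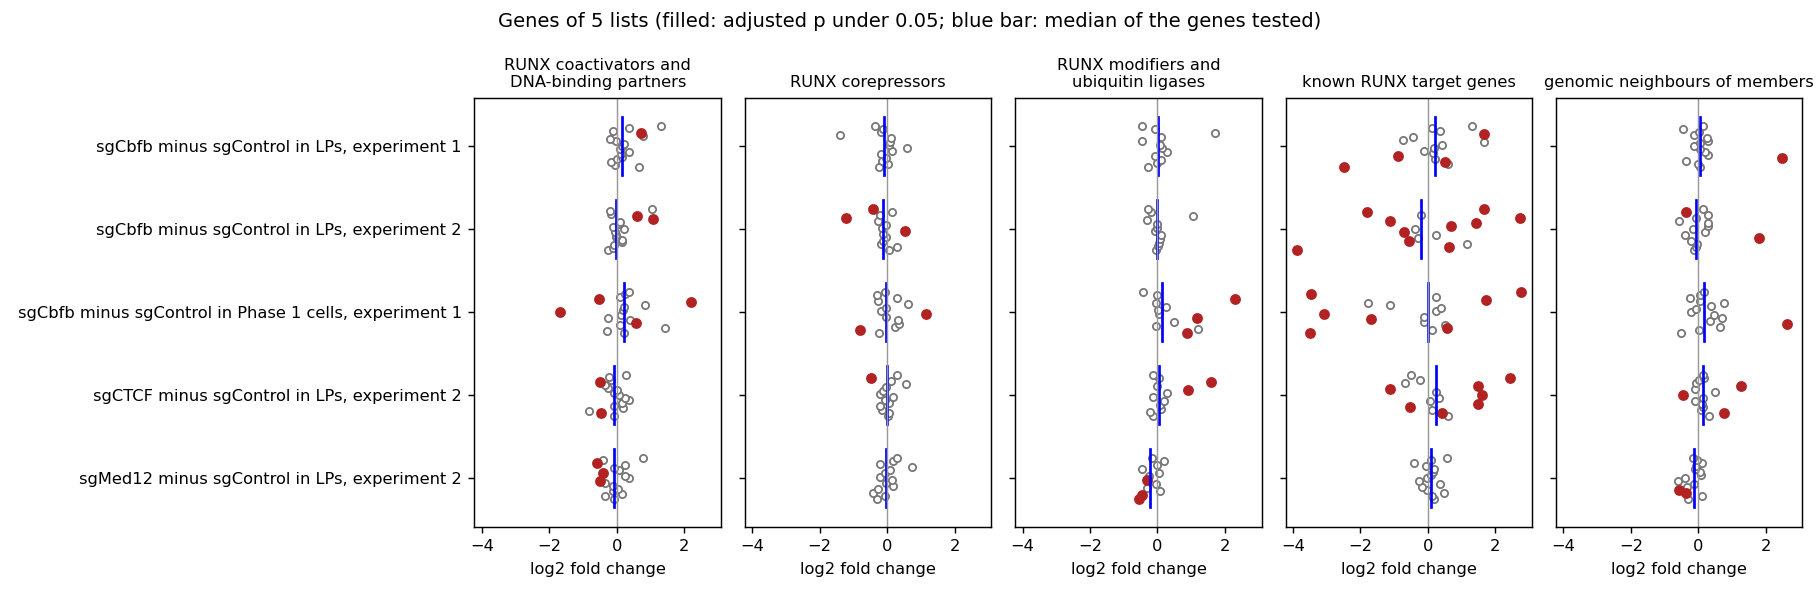
Log2 fold change (x axis) of every tested gene of 5 lists in the 5 comparisons with sgControl (y axis), one point per gene, filled red where the limma adjusted p is under 0.05, with the list's median as a blue bar. The medians lie between -0.21 and 0.24, and the RUNX target list spreads furthest to either side, with *Bcl11b* at -3.89 in LPs of the second experiment.

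Genes with a pattern like that of each member were sought by the root mean square difference, on the log2 scale, of their changes against the LP sgControl group over the other 6 groups, among 8250 genes with a mean over 10 CPM. The closest to *Runx1* were *Prkcd*, *Retreg1* and *Tnfrsf13b*, at 0.08, 0.16 and 0.16. *Prkcd* encodes protein kinase C delta, and with sgCbfb it was 1.02 and 1.31 above sgControl in LPs, where *Runx1* was at 1.01 and 1.21. The closest to *Cbfb* were *Srgn*, *Bend4* and *Trim13*, at 0.15, 0.17 and 0.20. The pattern of *Runx2* had no gene within 0.2, and the closest were *Hmgb3*, *Commd1* and *Cebpb*, at 0.24, 0.24 and 0.26. That of *Runx3* was the most common, with 239 genes within 0.2 and *Asf1b*, *Mpdu1* and *Mrps18c* closest, at 0.05, 0.08 and 0.09. By comparison, 5 genes lay within 0.2 of *Runx1* and 2 of *Cbfb*. These distances describe the 6 groups, which share control libraries, and were not tested. The named genes were picked by these same distances, so their likeness to a member was fixed in advance.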

How the data were processed

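The values of 24 QuantSeq libraries were used. The authors trimmed reads with fastp, aligned them to mm10 with STAR and deposited 1 value per gene and library. The files name it TPM, but the deposited values are CPM. They are whole multiples of 1 read whatever the gene's length, and whole reads were recovered for 100.0% of values within 0.001 CPM. The line without a gene name in each file and 1 column of the authors' mean were left out. limma 3.58.1 (R 4.3.3) was run on log2(CPM + 1), a scale that understates changes of low genes, for the genes that reached 1 CPM in 3 or more libraries. Each experiment's 12 libraries were fitted jointly with the trended moderation of limma, and p was adjusted by Benjamini-Hochberg over the genes tested. "Rose" and "fell" mean an adjusted p under 0.05. Exact permutation of 3 libraries against 3 cannot go below 0.1. The alternatives were pseudocounts of 0.1 and 5, 2 other filters, median-of-ratios scaling, edgeR 4.0.16 on the recovered reads, a replicate block, only the groups compared, each library left out and, added after seeing the data, unmoderated variances. Replicates differed by more than sampling noise. Deviations of same-numbered libraries correlated over 0.1 in 2 and 6 of 18 pairs in the 2 experiments, at up to 0.14 and 0.22. Only sgCbfb and sgCTCF of the second experiment had all 3 pairs over 0.1 (0.10 to 0.13). This comes from the data. Blocking changed no call of a member between these groups, and the only call it changed was *Runx2* with sgCTCF against sgControl, which then passed. Labels call them replicates, and the methods call them biologically independent. Genes named are the 4 members, the sgRNA targets, the 3 genes nearest in pattern to each member, genes with overlapping exons and up to 4 genes per list with the largest changes past the test. *Gzma*, *Hbb-bt*, *Cpa3*, *Notch1*, markers at 0 or under the floor and *Gm16225* were named after their values were seen. One item of the gene lists is not reported here by name. Members and lists were chosen with earlier results of these data known. The test was also run on simulated data with 200 changed genes, and no call reported here rests on that run. Positions come from GENCODE M21 on GRCm38, which holds 55227 of the 55487 genes. pandas 2.3.3, numpy 2.4.6 and matplotlib 3.10.9 were used.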

Additional observations from a re-analysis of the deposited data

Results flagged for a closer look

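The response of *Runx2* to sgCbfb differed between the stages. The interaction was 1.73 on the log2 scale (limma with Benjamini-Hochberg adjustment, adjusted p = 0.0087). The *Runx2* mean was 52.7 (sgControl) and 47.7 CPM (sgCbfb) in LPs and 24.1 and 74.5 CPM in Phase 1 cells, and all 3 Phase 1 sgCbfb libraries were above all 3 Phase 1 sgControl libraries. Over the fits that leave out 1 library the interaction ranged from 1.53 to 1.97, with adjusted p values of 0.0017 to 0.043. Without moderated variances the interaction did not pass (adjusted p = 0.092). *Runx2* also rose by 0.55 with sgCbfb in the second experiment, which was not part of that test, and this call was lost without sgControl replicate 1 or 3 or sgCbfb replicate 2 (adjusted p of up to 0.19 over the fits that leave out 1 library), without the filter on low values (0.055) and without moderated variances (0.12).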

How the results depend on the processing

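Over 44 results (4 genes in 11 comparisons), 372 of 392 values under another setting and 501 of 528 values with 1 library left out kept their direction and their side of the threshold. The sign of *Cbfb* with sgCTCF turned with median-of-ratios scaling (0.0026) and with edgeR (0.0066). Without the filter on low values the calls of *Runx2* for sgCbfb in the second experiment (0.55) and of *Runx3* between sgMed12 and sgCbfb (-0.31) were lost, the latter also with median-of-ratios scaling (-0.28), edgeR (-0.27) and only the groups compared (-0.31). *Runx1* between the stages in sgControl cells was lost with median-of-ratios scaling (-0.39) and with only the groups compared (-0.46), as was *Runx2* (-1.11) in the latter. With only the groups compared, *Runx1* (-0.37) and *Runx2* (0.62) between the stages in sgCbfb cells and *Runx2* with sgCTCF (-0.48) passed. Without moderated variances the calls of *Cbfb* (-1.09) and *Runx1* between the stages (-0.46), the *Runx2* interaction (1.73), *Runx2* with sgCbfb in the second experiment (0.55), and *Cbfb* (0.80) and *Runx3* (-0.31) between sgMed12 and sgCbfb were lost, the first being that of sgCbfb in LPs of the first experiment. The cause was not tested.

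With 1 library left out, results that crossed the threshold or turned sign ranged as follows. *Cbfb* ranged from -0.10 to 0.0553 with sgCTCF, from -0.64 to -0.18 with sgMed12 and from -0.62 to -0.16 between sgMed12 and sgCTCF. *Runx1* ranged from -0.029 to 0.18 for the interaction, from -0.43 to -0.28 between the stages in sgCbfb and from -0.52 to -0.34 in sgControl cells, and from 0.22 to 0.31 between sgMed12 and sgCTCF. *Runx2* ranged from -1.34 to -0.91 between the stages in sgControl cells, from -0.25 to 0.0897 with sgCbfb in LPs of the first and from 0.42 to 0.64 in those of the second experiment, from -0.58 to -0.28 with sgCTCF and from -0.18 to 0.12 between sgMed12 and sgCTCF. *Runx3* ranged from 0.47 to 0.54 between the stages in sgCbfb cells, from -0.0314 to 0.12 and from -0.0035 to 0.0522 with sgCbfb in LPs of the first and second experiment, and from -0.37 to -0.21 between sgMed12 and sgCbfb.

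Replicate numbers are shared between groups in the labels. Correlations between same-numbered libraries ran from -0.04 to 0.14 and from -0.13 to 0.22 in the 2 experiments, with 2 and 6 of 18 pairs over 0.1, and sgCbfb and sgCTCF were the only pair of groups with all 3 over it. With the replicate number as a block, *Runx2* with sgCTCF passed (-0.48, adjusted p = 0.042), and no other result crossed the threshold. The number of genes past the test moved by over 1.5 times in some settings. With only the groups compared it was 601 (377 as reported) for sgCbfb in LPs of the first experiment, 542 (858) and 640 (297) between the stages in sgControl and sgCbfb cells, 2221 (1361) for sgCTCF and 139 (952) for sgMed12. It was 325 for sgMed12 without the filter, and without moderated variances 78 (168) for the interaction, 852 for sgCTCF, 112 for sgMed12 and 1568 (2635) between sgMed12 and sgCTCF. The depth of the first experiment, at 25 to 134 reads of *Runx2* and 50 to 157 reads of *Cbfb* per library, limits how small a change of these genes can be seen there.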
